A study of Rattus norvegicus with 138 samples.

Results

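The 8 genes described here carry out antigen presentation by major histocompatibility complex (MHC) class II molecules in the rat. They are RT1-Ba and RT1-Bb (the alpha and beta chains of the RT1-B molecule), RT1-Da and RT1-Db1 (the chains of RT1-D), RT1-DMa and RT1-DMb (the chains of the peptide exchanger RT1-DM), Cd74 (the invariant chain) and Ciita (the class II transactivator). They were chosen by symbol for their known function. All 8 were present among the 16181 gene symbols of the expression table, and all 8 were among the 11328 genes that exceeded a mean of 1 TPM (a level scaled to transcript length and to the library total) in at least 1 group and were tested.

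Class II molecules display peptides from the endosomes to CD4+ T cells. Each is a pair of an alpha and a beta chain that is assembled with the invariant chain Cd74, which blocks the peptide groove until proteases of the endosome cut it down. DM then removes the last fragment and lets a peptide bind. Dendritic cells, B cells and macrophages are the main class II cells, resting muscle fibers hold little, and Ciita is the coactivator that most class II transcription depends on. It is recruited to promoters that carry a conserved module of an X box, bound by RFX, and a Y box, bound by NF-Y.

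RNA of whole tibialis anterior (TA) muscle came from Lewis rats, inbred males of about 4 months, after volumetric muscle loss, a surgical loss of more muscle than the tissue can rebuild. Injured muscles had a full-thickness punch taken from the middle of the left TA and were left without repair or filled with a minced muscle graft (MMG), a graft of minced muscle. The uninjured TA of the other leg of operated rats is called contralateral here, and the control muscles are the left and right TA labelled Sham at day 0, which the study describes as unoperated. Muscles were taken at 3, 7, 14 and 28 days post injury (DPI). The samples label some operated rats as running, and for these the amount and kind of running is not given in the sources used here. The graft was autologous, made from the tissue cut out of the same rat, so RNA of the graft and of the remaining muscle cannot be told apart.

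After libraries with fewer than 7000 symbols above 1 TPM were left out, 114 muscles of 78 rats remained, namely 4 control muscles from 2 rats, 34 contralateral and 76 injured muscles. Among rats that did not run, non-repaired injured muscles numbered 3, 8, 4 and 4 at 3, 7, 14 and 28 DPI and their contralateral muscles 2, 4, 2 and 2. Grafted muscles numbered 7, 8, 4 and 4, with 2, 6, 2 and 2 contralateral muscles. Running rats gave 8, 4, 4 and 2 non-repaired and 6, 4, 4 and 2 grafted muscles, and 2 contralateral muscles in each arm at 3, 7 and 14 DPI. The 13 libraries left out held 901 to 5712 symbols above 1 TPM against 7866 to 10948 in the others, and 10 of them were from 7 DPI and 8 from running rats. The 7 skeletal muscle markers summed to between 182256 and 228472 TPM in control muscle and 131698 and 201429 TPM in contralateral muscle, but to between 20750 and 75812 TPM in injured muscle at 3 DPI, 40320 and 120043 TPM at 7 DPI, 108613 and 180671 TPM at 14 DPI and 123801 and 173810 TPM at 28 DPI. TPM sums to a fixed total, so a fall in muscle RNA raises the TPM of other genes, and values rescaled by size factors are given for the main comparisons. TPM carries no depth, so no counting error can be attached to a value.

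One limma model of log2(TPM + 1) was fitted to all 114 muscles, with Benjamini-Hochberg adjustment of p across the 11328 genes. A gene is called if it changed by more than 1 on the log2 scale with an adjusted p below 0.05. Counts of members at an unadjusted p under 0.05 are also given, without the share of all genes at that cut. The members are correlated within groups, so such counts are descriptions and no evidence of a change. All fold changes below are on that log2(TPM + 1) scale, which understates the change of a gene as low as Ciita. RT1-Db1 has a near-identical neighbour, RT1-Db2, class II genes vary between rat strains, and the Lewis reads were assigned on a reference rat genome, so how reads were shared among class II copies cannot be read from TPM.

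The promoters of the members are shown to place the letters of the Y and X boxes, described above, in these genes. RefSeq (assembly GRCr8) gave a promoter for 6 of the 8 members, and RT1-DMb and Ciita had no entry. In the 250 bases upstream of the start, 5 of these 6 held the letters GATTGG, the core of the Y box, on the strand of the gene, and Cd74 did not. The stretches below are 50 bases each, 5′ to 3′ on the gene's strand. GATTGG and GNNACNGATG, the letters used here for the X box, are in capitals where they occur. Both letter strings were chosen after these promoters had been read, and GNNACNGATG is what RT1-Bb, RT1-Da, RT1-Db1 and RT1-DMa share, with N where they differ.
RT1-Ba, chr20:4576975-4577024, plus strand: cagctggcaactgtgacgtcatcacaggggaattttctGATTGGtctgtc
RT1-Bb, chr20:4604169-4604218, minus strand: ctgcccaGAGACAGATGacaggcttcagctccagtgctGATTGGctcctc
RT1-Da, chr20:4515327-4515376, plus strand: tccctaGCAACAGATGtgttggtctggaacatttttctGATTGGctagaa
RT1-Db1, chr20:4560232-4560281, minus strand: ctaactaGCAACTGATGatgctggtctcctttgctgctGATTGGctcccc
RT1-DMa, chr20:4712389-4712438, minus strand: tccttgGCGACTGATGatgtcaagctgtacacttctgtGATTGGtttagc

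RT1-Bb, RT1-Da, RT1-Db1 and RT1-DMa held both strings, with 21 or 22 bases between them. Of the 2 strings RT1-Ba held only GATTGG. GNNACNGATG ends in GATG, which the RT1-Ba stretch shown lacks, so this string cannot tell whether RT1-Ba has an X box. Of 33465 promoters of the same 250 bases, 13.3% held GATTGG on either strand, 2.26% held GNNACNGATG, and 0.0299% (10 promoters) held GNNACNGATG followed by GATTGG on the same strand within 10 to 40 bases. RT1-DOb and RT1-Db2, class II genes that are not members, were among these 10, with 19 and 20 bases between the strings. The letters were taken from 4 of the members, so their rarity elsewhere is a description and supports nothing about the members. A match describes letters in this window and says nothing of binding in these muscles.

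In control muscle every member except Ciita was above 1 TPM. Cd74 was the most abundant, at 36.2 ± 4.46 TPM (mean ± SD, n = 4), RT1-DMb followed at 16.2 TPM, and RT1-Da, RT1-Db1, RT1-Ba and RT1-Bb lay at 11.1, 9.83, 9.68 and 6.97 TPM. RT1-DMa was at 3.25 TPM and Ciita at 0.188 TPM. The ranges of RT1-Da, RT1-Db1 and RT1-Ba overlapped in control muscle, so these neighbours in the order did not differ beyond their spread, whereas RT1-DMb (14.9 to 17.97 TPM) stood above all 4 classical chains (5.59 to 12.6 TPM). The order differed in operated rats. In group means RT1-DMb was below all 4 classical chains in every injured group except grafted running muscle at 3 DPI, where it was at 132.7 TPM and RT1-Bb at 131.2 TPM. It was also below all 4 in 10 of the 14 contralateral groups, so this order was not limited to injured muscle.

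The classical chains rose in injured muscle and stayed above the uninjured muscles through 28 DPI. The values that follow for each member are of rats that did not run. RT1-Da, the alpha chain of RT1-D, was at 8.86, 11.4, 11.5 and 12.6 TPM in the 4 control muscles. In non-repaired muscle it was at 271, 310 and 448 TPM at 3 DPI, between 162 and 344 TPM with a median of 239 TPM over 8 muscles at 7 DPI, at 81.3, 113, 119 and 125.04 TPM at 14 DPI, and at 61.5, 62.9, 65.1 and 82.2 TPM at 28 DPI. Its contralateral muscles lay between 15.4 and 33.9 TPM at all 4 times. Every one of these injured muscles was thus above every one of the contralateral and control muscles.

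Against contralateral muscle RT1-Da was higher by log2 3.65 ± 0.35 (SE; limma adjusted p = 1.2e-15) at 3 DPI, 3.46 at 7 DPI, 2.20 at 14 DPI and 1.58 ± 0.34 (limma adjusted p = 7.9e-05) at 28 DPI. In linear means this was 12.8-fold at 3 DPI and 3.08-fold at 28 DPI. The other 3 classical chains followed the same course. RT1-Db1, the beta chain that pairs with RT1-Da, was at a mean of 242, 216, 101.5 and 64.2 TPM at 3, 7, 14 and 28 DPI. RT1-Ba, the alpha chain of RT1-B, was at 237, 202, 96.0 and 61.3 TPM, and its partner RT1-Bb at 199, 161, 74.2 and 44.0 TPM. Against contralateral muscle these 3 chains were higher by log2 3.09 to 3.23 at 3 DPI and by 1.42 to 1.63 at 28 DPI, and all 3 were called at each of the 4 times. The 28 DPI calls depend on the libraries and the scaling. With all libraries kept, the 28 DPI changes of the 4 chains were as large (1.42 to 1.63) but limma adjusted p values were 0.052 to 0.11 and none was called, and with size factors RT1-Db1 was at 0.96, below the fold threshold.

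Cd74, the chaperone of the newly made chains, rose with them. It was at 33.1, 33.6, 35.3 and 42.7 TPM in control muscle, and at 559, 702 and 1088 TPM in non-repaired muscle at 3 DPI. At 7 DPI it ran from 451 to 844 TPM with a median of 644 TPM, at 14 DPI it was at 238, 299, 313.5 and 378 TPM, and at 28 DPI at 173, 186, 187 and 232.5 TPM. Contralateral muscles of these non-repaired, non-running rats lay between 41.0 and 108.01 TPM, and none of these injured muscles overlapped with them. The log2 fold change of Cd74 against contralateral muscle was 3.14, 3.29, 2.23 and 1.52 at the 4 times, each called by limma, with an adjusted p of 0.00019 at 28 DPI. With all libraries kept the 28 DPI change was 1.52 and was not called (limma adjusted p = 0.15).

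**Figure D1:**
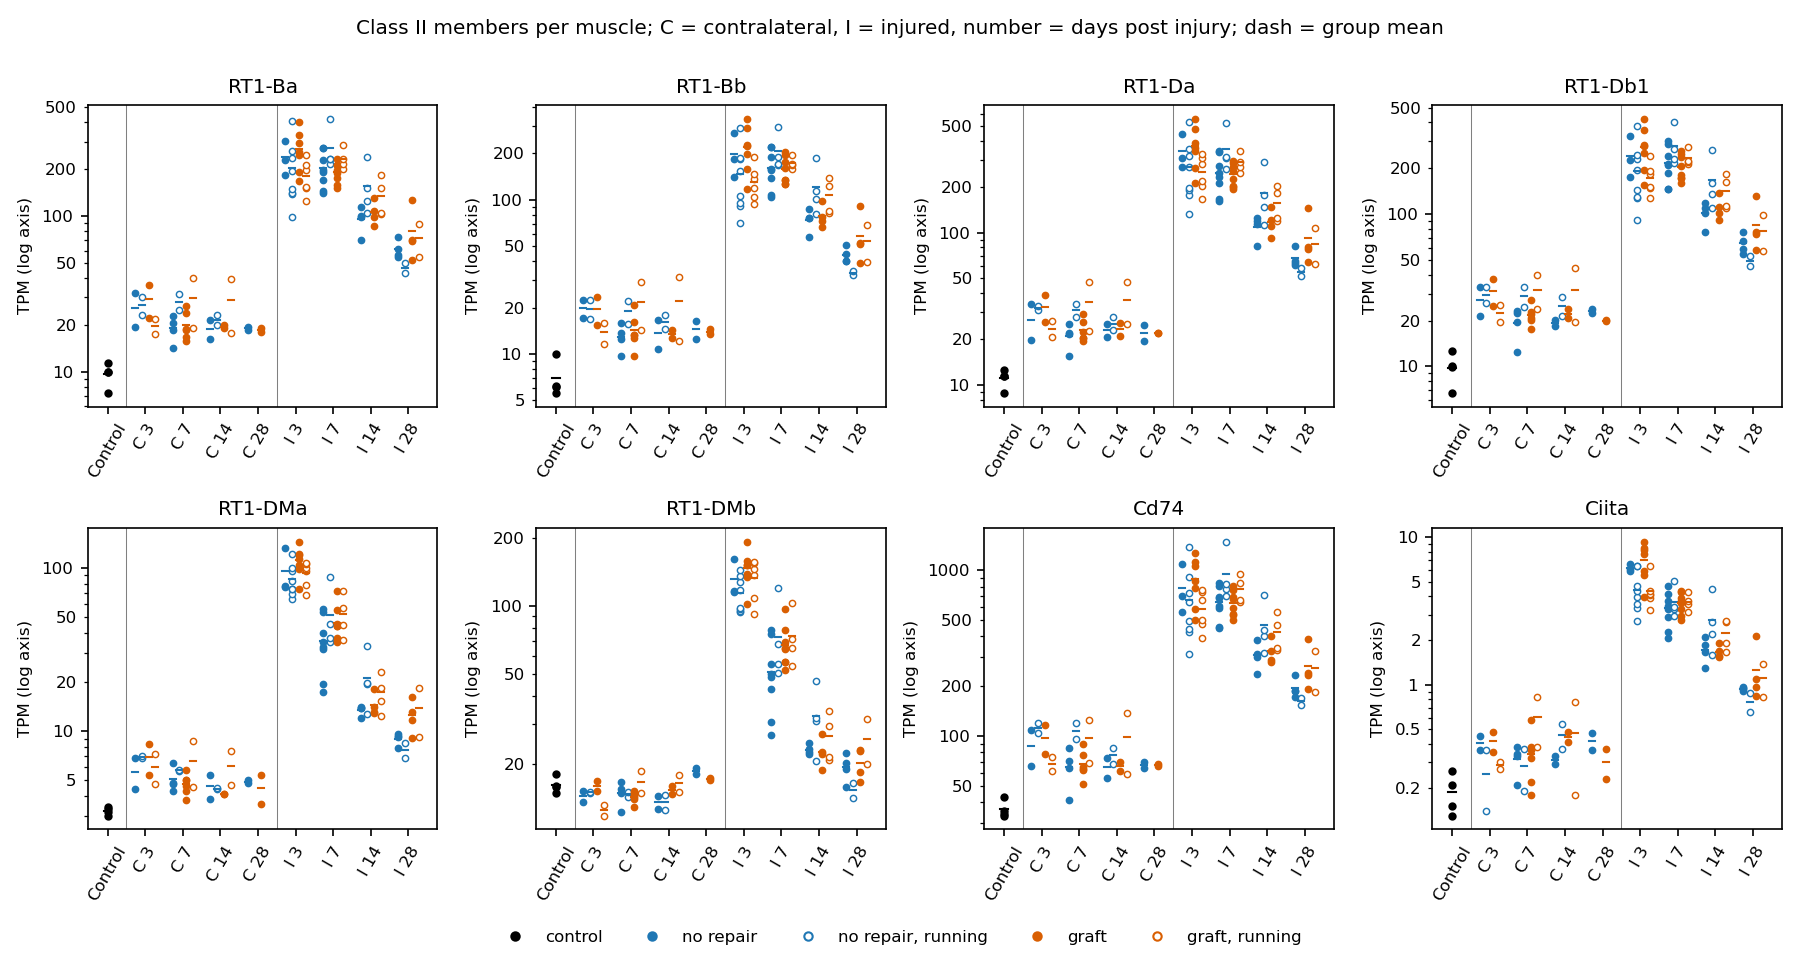
TPM of each member in every muscle on a log axis, for control, contralateral (C) and injured (I) muscle at 3, 7, 14 and 28 days, with filled points for rats that did not run, open points for running rats, blue for no repair, orange for graft and a dash at the group mean. For the 4 classical chains, Cd74 and Ciita the injured muscles lie above the contralateral muscles of the same day, and at 28 DPI RT1-DMb of injured muscle (14.1 to 31.6 TPM) overlaps contralateral muscle (16.9 to 19.2 TPM).

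The DM chains rose with the classical chains at 3 DPI. RT1-DMa was at 3.04, 3.18, 3.33 and 3.45 TPM in control muscle and at 76.0, 77.4 and 133.02 TPM in non-repaired muscle at 3 DPI. At 7 DPI it ran from 17.5 to 56.1 TPM with a median of 34.0 TPM, at 14 DPI it was at 12.1, 13.8, 13.8 and 14.0 TPM, and at 28 DPI at 7.86, 9.18, 9.38 and 9.63 TPM. Contralateral muscles of these non-repaired, non-running rats were between 3.84 and 6.85 TPM, below all of these injured muscles. The log2 fold change against contralateral muscle was 3.84, 2.51 and 1.38 at 3, 7 and 14 DPI, each called, and 0.76 at 28 DPI, where limma gave an adjusted p of 0.031 but the change was below the fold threshold.

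RT1-DMb was at 14.9, 15.8, 15.97 and 17.97 TPM in control muscle and at 116, 117 and 161 TPM in non-repaired muscle at 3 DPI. At 7 DPI it ran from 26.8 to 78.2 TPM with a median of 49.3 TPM, at 14 DPI it was at 22.1, 22.7, 23.2 and 24.7 TPM, and at 28 DPI at 15.8, 19.1, 20.2 and 22.3 TPM. At 28 DPI these values enclosed the 2 contralateral muscles at 17.97 and 19.2 TPM. Its log2 fold change against contralateral muscle was 3.09 and 1.64 at 3 and 7 DPI, both called, and 0.74 and 0.05 at 14 and 28 DPI, not called (limma adjusted p = 0.0097 and 0.89). The direction at 28 DPI depends on the scaling, since it was -0.41 when TPM was rescaled by size factors, and the 7 DPI value fell to 0.59, below the fold threshold.

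Ciita, the coactivator, stayed low in absolute terms and rose by a large ratio. It was at 0.13, 0.15, 0.21 and 0.26 TPM in control muscle, at 5.90, 6.14 and 6.57 TPM in non-repaired muscle at 3 DPI, and between 2.07 and 4.66 TPM with a median of 3.34 TPM at 7 DPI. At 14 DPI it was at 1.30, 1.68, 1.86 and 2.11 TPM and at 28 DPI at 0.91, 0.94, 0.95 and 0.96 TPM, with contralateral muscles of non-repaired, non-running rats between 0.21 and 0.47 TPM. These injured and uninjured muscles did not overlap at any time. In linear means the ratio to contralateral muscle was 15.3 at 3 DPI and 2.27 at 28 DPI, while the log2(TPM + 1) change was 2.36, 1.68 and 1.05 at 3, 7 and 14 DPI, each called by limma, and 0.46 at 28 DPI (limma adjusted p = 0.068). With a pseudocount of 0.1 TPM the 28 DPI change was 1.02 and called (limma adjusted p = 0.0071).

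Counted together against contralateral muscle without repair, 8, 8, 7 and 5 of the 8 members were called higher at 3, 7, 14 and 28 DPI and none lower. Over all 11328 genes the share called higher was 32.3%, 45.3%, 20.9% and 13.1%. The median log2 fold change of the members was 3.15, 3.30, 2.22 and 1.47, against 0.54, 0.91, 0.50 and 0.38 for all genes. When TPM was rescaled by size factors the all-gene median fell to between 0.01 and 0.07 and the share called higher to 20.4%, 18.5%, 10.4% and 7.12%. The members called higher were then 8, 7, 5 and 4, without RT1-DMb at 7 DPI (0.59), RT1-DMa and Ciita at 14 DPI (0.82 and 0.89) and RT1-Db1 at 28 DPI (0.96). With all libraries kept they were 8, 8, 7 and 0.

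Against control muscle 8, 8, 7 and 6 members were called higher, with 48.3%, 45.6%, 25% and 21.1% of all genes called higher. With size factors the members numbered 8, 7, 7 and 5 and the shares of all genes called higher were 24.2%, 21.6%, 15.6% and 11.3%. The control rats carry another series prefix in their labels than all operated rats, so in this comparison series and operation cannot be told apart. The replicates of control muscle are both legs of 2 rats.

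Grafted muscle of rats that did not run gave a like course. Against their contralateral muscles 8, 8, 6 and 6 members were called higher at 3, 7, 14 and 28 DPI, where 37.2%, 42.9%, 25.6% and 18.8% of all genes were. RT1-DMb and Ciita were not called at 14 DPI (log2 0.52 and 0.89) nor at 28 DPI (0.22 and 0.77). In running rats 8, 8 and 8 members were called higher without repair and 8, 8 and 7 with the graft at 3, 7 and 14 DPI, against 33.7%, 39.9% and 25.7%, and 37.9%, 40% and 23.6% of all genes. RT1-DMb was the member not called in grafted running rats at 14 DPI, at log2 0.63. With size factors the counts with the graft in rats that did not run were 8, 8, 5 and 5, where 21.4%, 20.9%, 12.9% and 9.51% of all genes were called higher, and RT1-DMa was lost at 14 and 28 DPI (0.98 and 0.79). In running rats they were 8, 8 and 7 without repair and 8, 8 and 5 with the graft, beside 21.3%, 20.5% and 12%, and 22.6%, 18.9% and 12.6% of all genes. The members lost at 14 DPI were RT1-DMb without repair (0.47) and RT1-DMa and Ciita with the graft (0.78 and 0.93).

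**Figure D2:**
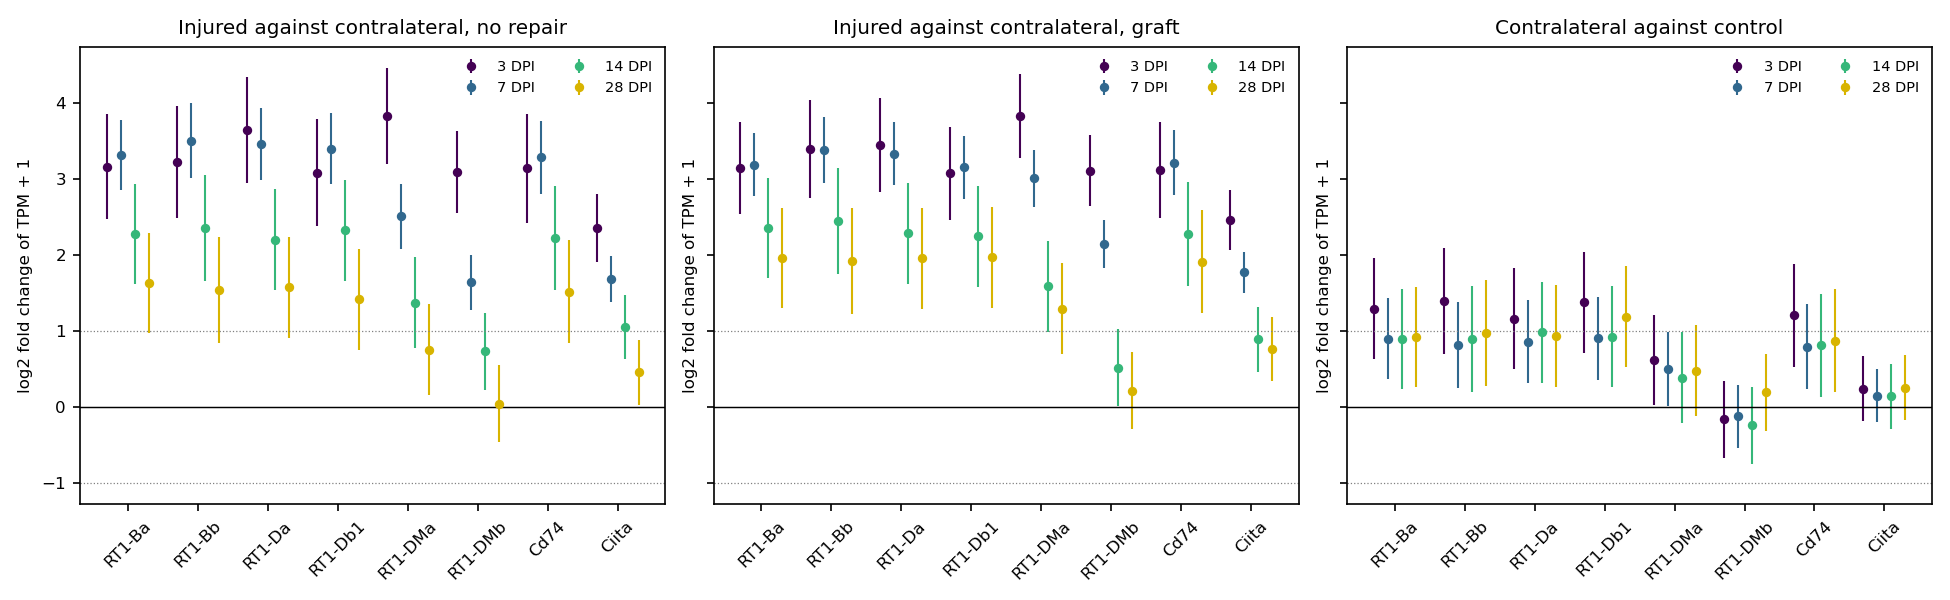
Log2 fold change of TPM + 1 for each member by day, with 95% intervals from limma, for injured against contralateral muscle without repair (left), the same with graft (middle) and contralateral against control muscle (right); dotted lines mark a log2 fold change of 1. RT1-DMb falls from 3.09 at 3 DPI to 0.05 at 28 DPI without repair, and the classical chains fall to between 1.42 and 1.63.

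Times were also compared inside injured muscle. From 3 to 7 DPI without repair RT1-DMa fell by 1.44 ± 0.24 and RT1-DMb fell by 1.42 ± 0.20 on the log2 scale (SE; limma adjusted p = 4.9e-07 and 1.1e-08), and these 2 were the only members called in that comparison, where 5.35% of all genes were called lower. The classical chains and Cd74 changed by -0.16 to -0.49 with limma adjusted p values of 0.13 to 0.65, and Ciita by -0.77 (limma adjusted p = 0.00012), short of the fold threshold. In grafted muscle the same 2 members were called, RT1-DMa at -1.26 and RT1-DMb at -1.12, beside -0.39 to -0.58 for the classical chains and Cd74, and 4.29% of all genes were called lower. Whether the DM chains fell by more than the classical chains was not tested.

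From 7 to 14 DPI without repair 7 members were called lower, at -1.02 to -1.25, and Ciita changed by -0.63, while 6.1% of all genes were called lower. These values lie close to the fold threshold, and none of the 7 was called with size factors (-0.64 to -0.87) or with all libraries kept. With size factors 476 of all genes were called in place of 773, 60.9% of them higher, and the all-gene median moved from -0.40 to -0.06. Leaving out the 14 DPI muscle lowest in RT1-DMa left 2 of the 7 called, and leaving out the 7 DPI muscle of rat 12 or of rat 19 left 3. In grafted muscle RT1-Da, RT1-DMa and RT1-DMb were called, at -1.03, -1.58 and -1.52, where 9.77% of all genes were called lower. RT1-Da was lost with size factors (-0.65), where 740 of all genes were called in place of 1229, 46.5% of them higher. With all libraries kept the change of RT1-Da was as large (-1.03) but not called (limma adjusted p = 0.053). RT1-Da was also lost without the 7 DPI muscle of rat 23 or rat 24 or the 14 DPI muscle with the lowest level of RT1-Da.

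From 14 to 28 DPI no member was called in either arm by limma (0.353% and 1.11% of all genes called lower), although 7 of the 8 had an unadjusted p under 0.05 without repair and 0 of 8 with the graft. Over the whole course, from 3 to 28 DPI, all 8 members were called lower in both arms, as were 24.3% and 27.3% of all genes. With size factors 2564 and 2913 of all genes were called in place of 3267 and 3708, 39.8% and 43.5% of them higher. The largest falls were those of RT1-DMa, at -3.22 without repair and -3.06 with the graft, and RT1-DMb, at -2.69 and -2.80. The classical chains and Cd74 changed by -1.69 to -2.30.

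Ratios within a muscle, which do not depend on the scaling of the library, describe the DM chains beside the others. RT1-DMa over RT1-DMb was 0.169 to 0.224 in control muscle, 0.650 to 0.825 in non-repaired muscle at 3 DPI and 0.421 to 0.506 at 28 DPI. It was 0.261 to 0.453 in the contralateral muscles of the same arm, also above control muscle, and these overlapped the injured muscles at 28 DPI. RT1-Da over RT1-DMa was 2.91 to 3.95 in control muscle and 3.37 to 4.01 at 3 DPI, and then 4.91 to 9.29, 6.71 to 9.04 and 6.86 to 8.53 at 7, 14 and 28 DPI. The 3 DPI muscles thus lay below those of the later times and overlapped control muscle. Contralateral muscles of the same arm were at 3.58 to 5.33.

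Within the pairs the ratios moved less. RT1-Ba over RT1-Bb was 1.14 to 1.63 in control muscle and 1.11 to 1.43 over the non-repaired muscles of all times. RT1-Da over RT1-Db1 was 0.994 to 1.32 in control muscle, 1.38 to 1.55 at 3 DPI and 0.98 to 1.19 at 7 to 28 DPI, so the 3 DPI muscles were above the others. Cd74 over the sum of the 4 classical chains was 0.895 to 1.16 in control muscle and 0.716 to 0.864 in non-repaired injured muscle, without overlap, but contralateral muscles of the same arm, at 0.792 to 0.982, overlapped both. Ratios between genes rest on how reads were assigned to each transcript and were not tested.

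Set against the macrophage marker Cd68, Cd74 was lower than in control muscle in the injured leg and also in the uninjured leg of non-repaired, non-running rats. Cd74 over Cd68 was 30.7 to 45.8 in control muscle, 2.03 to 2.52 in non-repaired muscle at 3 DPI, 3.54 to 11.1 at 7 DPI, 7.20 to 13.3 at 14 DPI and 2.91 to 17.1 at 28 DPI. In contralateral muscles of the same arm it was 16.8 to 18.2, 22.1 to 29.6, 19.1 to 23.2 and 25.2 to 28.6, between injured muscle of the same day and control muscle. Control muscle differs from both in series. In linear means Cd68 was 337-fold and Cd74 21.6-fold over control in non-repaired muscle at 3 DPI, so a low Cd68 level in control muscle enters these ratios. The 13 macrophage markers summed to between 36.7 and 74.3 TPM in control muscle and to between 4611 and 8191 TPM over the 24 injured muscles at 3 DPI, then 876 to 5349 TPM at 7 DPI, 697 to 1655 TPM at 14 DPI and 399 to 1528 TPM at 28 DPI. Against contralateral muscle without repair 13, 13, 12 and 10 of the 13 were called higher at the 4 times, beside 32.3%, 45.3%, 20.9% and 13.1% of all genes. In whole muscle more class II cells and more class II RNA per cell cannot be told apart, and the part of the macrophage markers in the members' values was not tested.

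**Figure D3:**
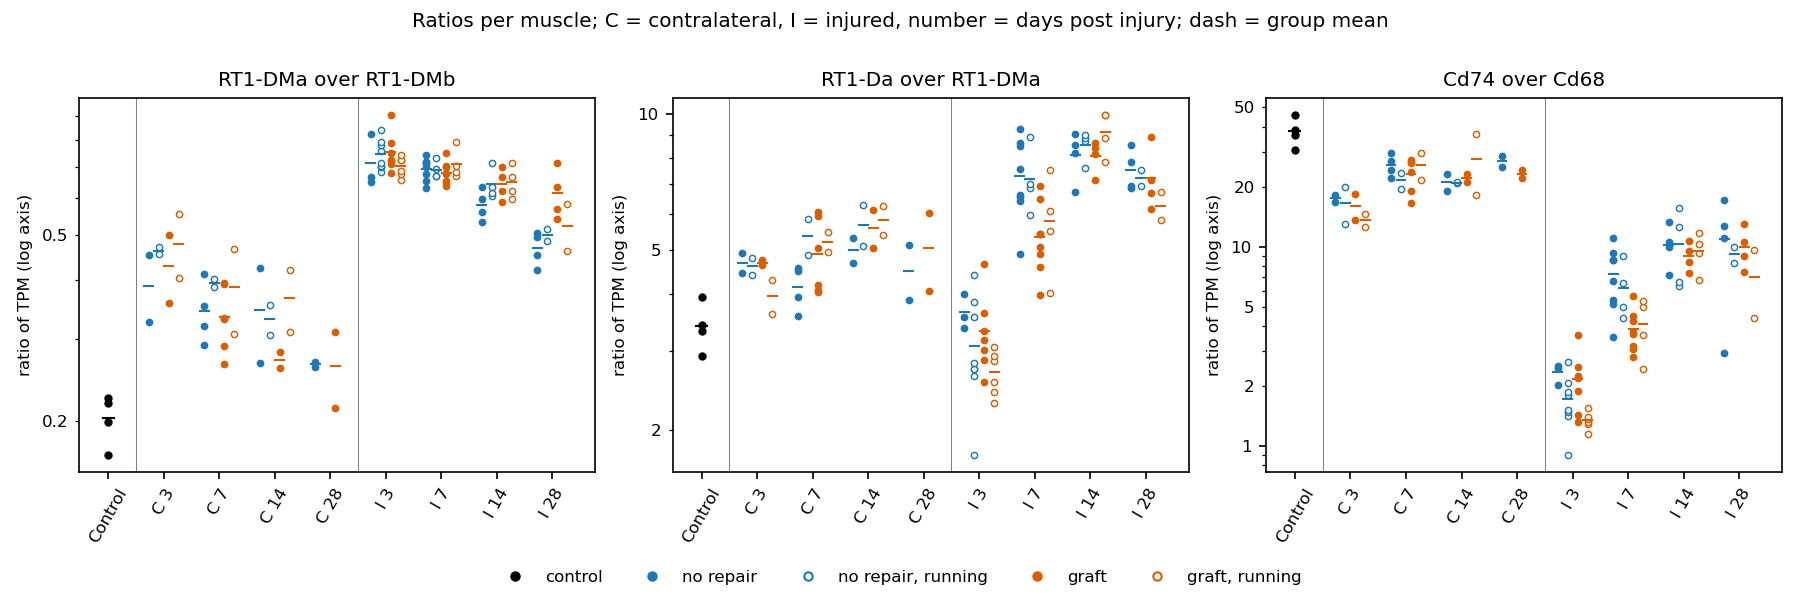
Ratios of TPM in every muscle on log axes for RT1-DMa over RT1-DMb, RT1-Da over RT1-DMa and Cd74 over Cd68, with groups and colours as in the plot of members by muscle and a dash at the group mean. Cd74 over Cd68 lies between 30.7 and 45.8 in control muscle and between 2.03 and 2.52 in non-repaired muscle at 3 DPI.

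Markers of other class II cells moved too. Of 11 measured dendritic cell markers, 9 were tested, and against contralateral muscle without repair 7, 8, 5 and 4 were called higher at 3, 7, 14 and 28 DPI, and Cd1d1 was called lower at 3 and 7 DPI. The shares of all genes called higher at these times were 32.3%, 45.3%, 20.9% and 13.1%. Summed, the 11 were at 53.4 to 107.6 TPM in control muscle, where Lamp3 and Ccl22 were listed at 0 in every muscle, and at 381 to 611 TPM in all injured muscles at 3 DPI. In injured muscle the sum was then 101.5 to 337.6 TPM at 7 DPI, 97.9 to 153 TPM at 14 DPI and 95.5 to 140.98 TPM at 28 DPI, overlapping control muscle and the 34 contralateral muscles (65.9 to 126.3 TPM). In control muscle 7 of the 11 averaged below 1 TPM, so few genes carry the sum there, and Cd1d1, called lower above, is part of it. B cell markers were low, with Cd22 (log2 1.95) and Pou2af1 (1.10) of 4 tested called higher at 3 DPI, Cd22 (1.12) at 7 DPI and none later. With so few genes tested, these counts lie near or under the shares of all genes. The 7 measured markers summed to 0.06 to 0.45 TPM in control muscle, 0.31 to 2.08 TPM in contralateral muscle and 6.15 to 11.3 TPM in injured muscle at 3 DPI, and Ms4a1 was listed at 0 in every control muscle. The part of these cells in the members' values was not tested.

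Uninjured muscle of operated rats was compared with control muscle to ask whether class II changed outside the injury. The tests used the contralateral muscles of non-repaired rats that did not run. At 3 DPI RT1-Ba, RT1-Bb, RT1-Da, RT1-Db1 and Cd74 were called higher in contralateral muscle, by log2 1.30, 1.40, 1.16, 1.38 and 1.21 (limma adjusted p = 0.0011, 0.00096, 0.0034, 0.00067 and 0.0030), where 6.37% of all genes were called higher (6.43% in either direction). The 2 contralateral muscles held 19.7 and 33.9 TPM of RT1-Da against 8.86 to 12.6 TPM in control muscle, and 65.8 and 108.01 TPM of Cd74 against 33.1 to 42.7 TPM, so the groups did not overlap. In the other 6 contralateral muscles at 3 DPI, of grafted or running rats, RT1-Da was at 20.5 to 38.8 TPM and Cd74 at 61.7 to 120.5 TPM, also above every control muscle, and they were not tested against control. Markers of other cells moved too. Cd68 was 5.096-fold and the leukocyte marker Ptprc 6.52-fold over control muscle in linear means, the macrophage markers summed to 151.8 to 364.9 TPM over all 8 contralateral muscles at 3 DPI against 36.7 to 74.3 TPM, and the muscle markers to 131698 to 166711 TPM against 182256 to 228472 TPM, both without overlap, and their part in the members' values was not tested. The 5 calls rest on 2 muscles. Without the muscle of rat 10 none was called, and none was called with size factors, where the 5 changes were 0.63 to 0.89. With all libraries kept the changes were as before, at 1.16 to 1.40, but none was called (limma adjusted p = 0.19 to 0.37).

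At 7, 14 and 28 DPI no member was called in contralateral muscle by limma (0.803%, 0.715% and 0.185% of all genes called), and 6, 5 and 5 of the 8 had an unadjusted p under 0.05. The classical chains and Cd74 were then at log2 0.80 to 1.19 above control muscle and at 0.68 to 1.02 with size factors, a level at which means were 1.78-fold to 2.36-fold. Cd68 was then 2.53-fold to 3.17-fold and Ptprc 2.84-fold to 3.12-fold over control muscle. RT1-DMb was at -0.12, -0.24 and 0.19. Without the contralateral muscle lowest in RT1-Da (15.4 TPM), 3 members were called at 7 DPI. With all libraries kept, the 7 DPI values of the chains, RT1-DMa and Cd74 turned negative, and this group is the one that lost 2 of its 6 muscles to the symbol minimum. RT1-DMb was then called lower, at -1.45 (limma adjusted p = 0.002), where 4155 genes were called in place of 91. Contralateral and control muscle differ in series as well as in operation, and the 2 cannot be told apart.

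The graft addressed whether returning minced muscle to the defect changes these genes. No member was called between grafted and non-repaired injured muscle at 3, 7, 14 or 28 DPI (0.00883%, 0.0883%, 0.0265% and 0% of all genes called), and 0, 2, 0 and 0 had an unadjusted p under 0.05. For the classical chains and Cd74 the log2 difference at 7 DPI was -0.06 to 0.01, and the 95% interval of RT1-Da ran from -0.39 to 0.38 with 8 muscles in each group. Over all members and times the intervals reached from -0.48 to 0.95.

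The DM chains were the 2 members with an unadjusted p under 0.05 at 7 DPI. RT1-DMb ran from 52.2 to 96.7 TPM with a median of 65.0 TPM in 8 grafted muscles and from 26.8 to 78.2 TPM with a median of 49.3 TPM in 8 non-repaired muscles. The ranges overlapped, and the difference was log2 0.46 ± 0.15 (SE; limma adjusted p = 0.039), below the fold threshold, and 0.33 (limma adjusted p = 0.22) with size factors. RT1-DMa ran from 35.4 to 72.4 TPM with a median of 44.2 TPM against 17.5 to 56.1 TPM with a median of 34.0 TPM, a difference of 0.42 ± 0.17 (limma adjusted p = 0.10). In running rats graft and no repair differed by 0.05 for RT1-DMb and 0.09 for RT1-DMa at 7 DPI, with 4 muscles in each group. No member was called there at any time (0%, 0%, 0.0177% and 0.0177% of all genes), with 0, 0, 0 and 2 of the 8 at an unadjusted p under 0.05. The difference between the injury effects of the 2 arms, each against its own contralateral muscle, was not called for any member at any time (0% of all genes, with 0, 1, 0 and 0 members at an unadjusted p under 0.05), and for RT1-DMb at 7 DPI it was 0.50 ± 0.24 (limma adjusted p = 0.43). The members' median of this difference at 7 DPI was -0.10, and it moved to -1.02 with all libraries kept, where no member was called either.

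Running was compared within each arm. No member was called at any time, with limma adjusted p values of at least 0.13, and without repair 1, 4, 8 and 0 members and with the graft 6, 0, 0 and 0 had an unadjusted p under 0.05 at 3, 7, 14 and 28 DPI. The share of all genes called was at most 0.0441%. The difference between the injury effects of running and other rats without repair was not called for any member at 3, 7 or 14 DPI either (0.0971%, 0.00883% and 0% of all genes), with 0 of 8 at an unadjusted p under 0.05. Its median over the members at 7 DPI moved from -0.09 to -1.14 with all libraries kept, with no member called. At 3 DPI all 8 members had lower estimates in running rats in both arms, from -0.14 to -0.52 without repair and from -0.16 to -0.71 with the graft. At 7 and 14 DPI all 8 had higher estimates in both arms, from 0.12 to 0.65 without repair and from 0.02 to 0.41 with the graft. At 28 DPI, with 2 running muscles in each arm, the estimates without repair were all below 0 again, from -0.14 to -0.39, and with the graft they ran from -0.11 to 0.32. The signs at 3, 7 and 14 DPI were kept with size factors, but with all libraries kept the grafted 7 DPI values ran from -0.15 to 0.05.

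Ciita at 3 DPI with the graft had the lowest limma adjusted p of the members in these comparisons. In grafted muscle it was 3.93 to 9.37 TPM with a median of 7.68 TPM in 7 rats that did not run and 3.24 to 6.36 TPM with a median of 4.10 TPM in 6 running rats, and without repair it was 5.90, 6.14 and 6.57 TPM in 3 rats and 2.71 to 6.38 TPM with a median of 4.14 TPM in 8 running rats. The groups overlapped in both arms. The log2 differences were -0.57 ± 0.14 (limma adjusted p = 0.13) and -0.45 ± 0.17 (limma adjusted p = 0.20). At 14 DPI without repair RT1-Da was at 113, 148, 177 and 289 TPM in running rats and at 81.3, 113, 119 and 125.04 TPM in the others, a difference of 0.65 with a 95% interval of 0.11 to 1.20 (limma adjusted p = 0.43).

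The change of the running difference over time was tested directly, as a comparison chosen after the values above were seen. No member was called by limma at 7, 14 or 28 DPI against 3 DPI, without repair (0.00883%, 0.0265% and 0.00883% of all genes) or with the graft (0% each), and limma adjusted p values were 0.35 or higher. The estimates were 0.57 to 0.94, 0.63 to 1.16 and -0.11 to 0.31 without repair and 0.26 to 0.87, 0.36 to 1.13 and 0.35 to 0.62 with the graft, with 8, 8 and 0 and 6, 6 and 0 members at an unadjusted p under 0.05. The positive signs at 7 and 14 DPI follow from the estimates that prompted the comparison and are no evidence of their own. The 8 members are correlated, and the contrasts of an arm share the 3 DPI groups.

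**Figure D4:**
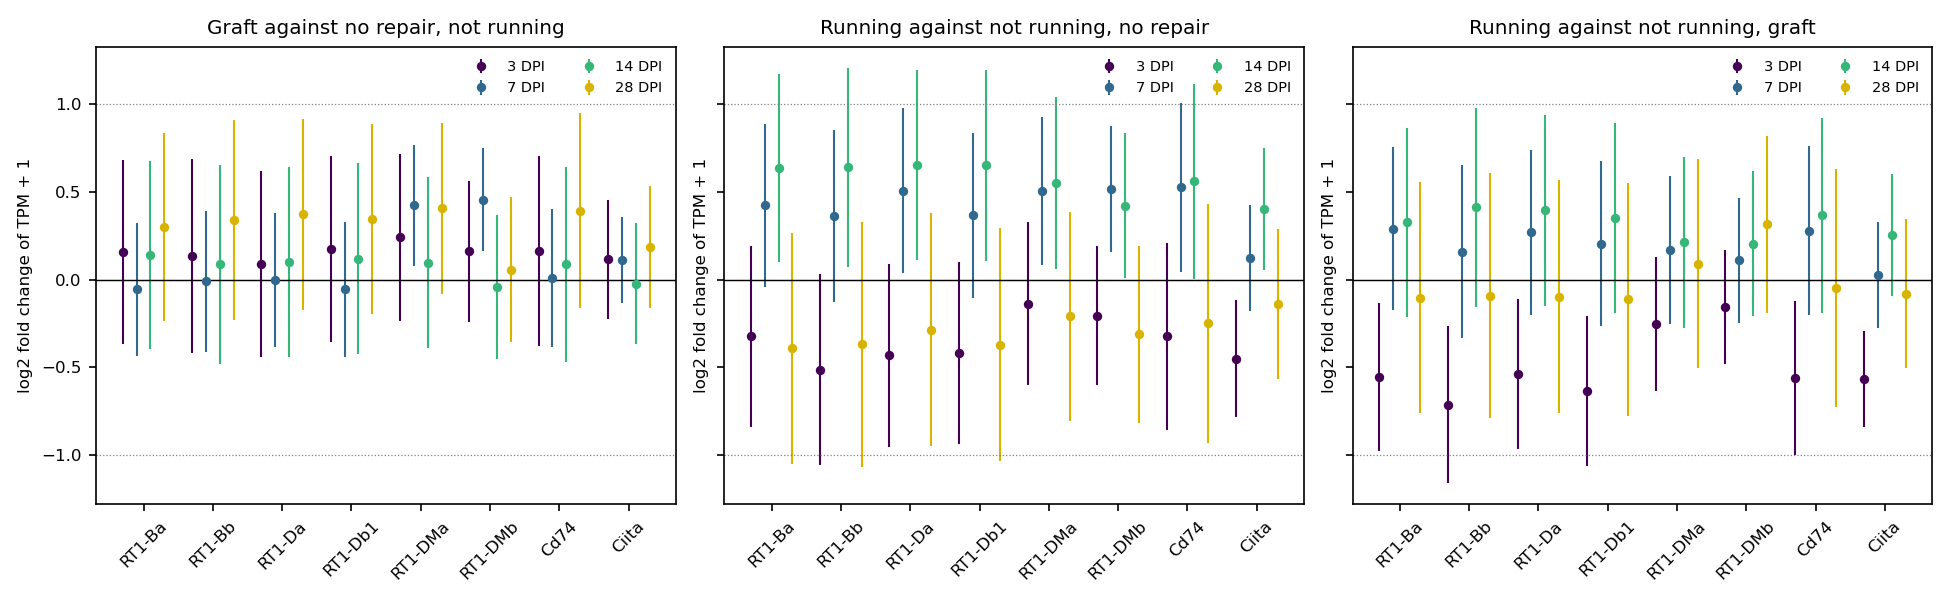
Log2 fold change of TPM + 1 with 95% intervals from limma for each member by day, for graft against no repair (left), running against not running without repair (middle) and running against not running with graft (right); dotted lines mark a log2 fold change of 1 in either direction. At 7 DPI RT1-DMb lies at 0.46 in the left panel, and all members lie below 0 at 3 DPI in the other panels.

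Across the 114 muscles the classical chains and Cd74 varied almost as one. Pearson's r of log2(TPM + 1) was 0.996 to 0.998 over their 10 pairs, 0.840 to 0.939 between them and the DM chains, and 0.939 to 0.966 between Ciita and the other members. After group means were removed these were 0.963 to 0.985, 0.679 to 0.800 and 0.662 to 0.849. The muscles share library and tissue composition, so the r values are descriptions.

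The genes most like the mean of the members over the 114 muscles were Pld4 (r = 0.987), Ctse (0.985), Cxcl16 (0.983), Cd83 (0.982), Limd2 (0.981), Tmem173 (0.981), Glb1 (0.980), Plekho1 (0.980), Irf8 (0.980) and LOC688090 (0.980). With group means removed they were Pld4 (0.883), Ms4a7 (0.816), Cd7 (0.816), Tmem173 (0.803), Fcrl2 (0.792), Cd37 (0.792), Map4k1 (0.785), Tf (0.785), Htra3 (0.779) and Ctse (0.776). Pld4, Tmem173 and Ctse were in both sets.

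The genes that make class II peptides rose together with the members. All 8 genes of antigen processing were called higher against contralateral muscle without repair at 3 DPI, with log2 changes from 1.31 for Ctsd (cathepsin D) to 4.29 for Lgmn (legumain), and 7, 7 and 6 were called higher at 7, 14 and 28 DPI. Of all genes 32.3%, 45.3%, 20.9% and 13.1% were called higher at 3, 7, 14 and 28 DPI. Ctss (cathepsin S, which makes the final cuts in the invariant chain) was at 3.28 to 5.16 TPM in control muscle and at a mean of 347, 121, 52.8 and 37.4 TPM in non-repaired muscle at the 4 times, and Ifi30 (the thiol reductase that unfolds antigens) at a mean of 8.91 TPM and 359, 119, 47.5 and 36.03 TPM. From 3 to 7 DPI 7 of the 8 were called lower, beside 5.35% of all genes, where the DM chains were the only members called. The list median was -1.59 and that of the members -0.39, beside -0.06 over all genes.

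The DO chains, which restrain DM, were low. RT1-DOa had a mean of 0.483 TPM in control and 6.24, 5.85, 3.91 and 2.15 TPM in non-repaired muscle, and RT1-DOb of 0.085 TPM and 4.20, 4.56, 1.73 and 1.25 TPM. Both were called higher against contralateral muscle at 3, 7 and 14 DPI and neither at 28 DPI, beside 32.3%, 45.3%, 20.9% and 13.1% of all genes. The other 2 class II chain genes of the list, RT1-Db2 and RT1-Ha, did not pass the minimum level for testing.

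Of 12 tested regulators of class II transcription 3, 3, 2 and 2 were called higher at the 4 times, beside 32.3%, 45.3%, 20.9% and 13.1% of all genes, and the list median was log2 0.48, 0.75, 0.51 and 0.30 beside 0.54, 0.91, 0.50 and 0.38 over all genes. The list as a whole thus stayed close to the background. Spi1 and Irf8, transcription factors of myeloid cells, were higher by log2 4.07 and 3.93 at 3 DPI and 1.15 and 1.71 at 28 DPI. The general factors of the promoter module changed little at 3 DPI, with 0.51 for Rfx5, -0.03 for Rfxank and -0.28 for Nfyb, none called, although Nfya was called at 1.26. In the interferon gamma pathway, the classical inducer of Ciita, 5, 6, 3 and 0 of 7 tested genes were called higher. Irf1 was at 1.64 and Socs1 at 1.67 at 3 DPI. Ifng itself was too low to be tested and was listed at 0 in all 4 control muscles and in the contralateral muscles of non-repaired, non-running rats, with a mean of 0.267, 0.963, 0.435 and 0.288 TPM in non-repaired injured muscle.

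Partners of presentation were called in part, beside 32.3%, 45.3%, 20.9% and 13.1% of all genes called higher at the 4 times, and the smaller counts below lie near or under these shares. Of 5 tested costimulatory genes 3 were called higher at 3 DPI, namely Cd80 (1.50), Cd86 (2.42) and Cd40 (2.06), then 2 at 7 DPI and none later. Of 10 genes of the T cell side 6, 7, 6 and 2 were called higher. Cd4, which macrophages of the rat also carry, was at 3.76 at 3 DPI and 1.84 at 28 DPI, and Cd3e, a chain of the T cell receptor complex, was at a mean of 2.55, 3.82, 1.72 and 0.92 TPM in non-repaired injured muscle and at 0.07 TPM in control muscle. Of 5 genes of class II turnover and Cd74 partners 4, 4, 1 and 1 were called higher, with March1, a ubiquitin ligase that removes class II from the surface, at 3.01 at 3 DPI and 0.31 at 28 DPI.

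MHC class I, which displays peptides of the cytosol to CD8+ T cells, rose as well. All 16 tested class I genes were called higher against contralateral muscle without repair at 3 and 7 DPI, 11 at 14 DPI and 8 at 28 DPI, and the list median was log2 2.09, 1.82, 1.46 and 1.03. B2m, the light chain of class I, had a mean of 142.4 TPM in control muscle and of 1062, 1012, 572 and 584 TPM in non-repaired muscle. The members' medians at the same times were 3.15, 3.30, 2.22 and 1.47, and the difference between the class I and class II genes was not tested.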

How the data were processed

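RNA of tibialis anterior muscles was sequenced, and the authors assigned reads to transcripts with Kallisto at default settings and deposited 1 table of TPM per gene symbol, the unit of every value used here. The study tested gene counts. Counts were not used here, so the test is limma on log2(TPM + 1) in place of a count test. The table is sorted by symbol and held 16182 symbols. It ends within the letter T in 1 incomplete line, which was left out, and later symbols were not analysed here, so shares, medians and rankings over all genes rest on the symbols up to that line. Of 138 libraries 9 had a title and label that disagree or gave no group and stayed out of all comparisons, and 13 fell under the minimum of 7000 symbols above 1 TPM. Depth is unknown from TPM.

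Libraries of 1 muscle were averaged. Genes that exceeded 1 TPM on average in any of 31 groups were fitted in one model (limma 3.58.1 with an intensity trend, statmod 1.5.0, R 4.3.3), with 83 residual degrees of freedom before moderation. Python 3.11.15, numpy 2.4.6, pandas 2.3.3 and matplotlib 3.10.9 were used for the rest. The code was tested on simulated data. Injured and contralateral muscles of a rat come from the same animal and so are paired: over 34 pairs the median correlation of their deviations from group means was 0.0786, and 15 pairs were over 0.1. The fit with rat as a block is an alternative.

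The 8 members are always named, the 10 genes most correlated with their mean are named over muscles and again with group means removed, and listed genes are given by counts with their extremes or defining genes. The members and lists were chosen with earlier results of these data known. Alternatives were a pseudocount of 0.1, no filter, size factors, all libraries kept, the block, libraries as samples, non-running groups alone, the adjusted p alone, control averaged per rat, rat number range as a covariate, pooled arms, and each muscle left out. The difference of running effects was chosen after seeing the data.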

Additional observations from a re-analysis of the deposited data

Results flagged for a closer look

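In 7 tests (5.47% of those made of a member in a group of 4 to 10 muscles) by Dixon's ratio, 1 muscle stood apart from the rest of its group at the 95% level, and chance gives about 1 in 20. Of these, 3 were the same muscle, that of rat 31 (no repair, running, 7 DPI). It held 418.89 TPM of RT1-Ba where the other 3 held 214 to 233 TPM, 297.6 TPM of RT1-Bb against 167 to 189 TPM, and 1494.83 TPM of Cd74 against 703 to 825 TPM. A control muscle of rat 38 held 9.96 TPM of RT1-Bb against 5.59 to 6.19 TPM. The grafted, running 7 DPI muscle of rat 27 held 275.21 TPM of RT1-Db1 against 214 to 222 TPM. In non-repaired muscle at 14 DPI 1 muscle was low in RT1-DMa, at 12.11 TPM against 13.8 to 14.0 TPM. The grafted, running 3 DPI muscle of rat 5 held 6.36 TPM of Ciita against 3.24 to 4.34 TPM. In 13 comparisons of differences between effects, each over the 8 members, limma called 0 members.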

How the results depend on the processing

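Of the counts of members called under other settings, 456 stayed within 1.5 times and 13 did not. Size factors took contralateral against control at 3 DPI from 5 to 0 and no repair, 14 against 7 DPI, from 7 to 0. Keeping all libraries took these to 0 and 0 (the former with changes as before), and injured against contralateral without repair at 28 DPI from 5 to 0 (with changes of 1.42 to 1.63, as before). In that setting contralateral against control at 7 DPI went from 0 to 1, with RT1-DMb called lower at -1.45. A pseudocount of 0.1 gave 1 and 1 in place of 0 for contralateral against control at 14 and 28 DPI, and non-running groups alone 1 at 28 DPI. The adjusted p alone gave 3 for contralateral against control at 7 DPI, 1 for graft against no repair at 7 DPI, and 5 and 8 for grafted muscle at 7 against 3 and 14 against 7 DPI.

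With single muscles left out, contralateral against control ranged from 0 to 5 at 3 DPI (0 without rat 10), 0 to 3 at 7 DPI (3 without the contralateral muscle lowest in RT1-Da, 1 without the left muscle of control rat 38) and 0 to 1 at 28 DPI (1 without the right muscle of control rat 37 or the left of 38). No repair, 14 against 7 DPI, ranged from 2 to 7, and grafted muscle from 2 to 5 (5 without any of 3 muscles, that of rat 16 among them). Leaving out was limited to 94 fits, and 3 groups were not run.

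With size factors RT1-DMb reversed to -0.17 and -0.41 against control at 14 and 28 DPI, -0.41 against contralateral muscle without repair at 28 DPI, -0.16 and -0.35 with graft at 14 and 28 DPI, and -0.0027 for contralateral against control at 28 DPI. With all libraries kept, contralateral against control at 7 DPI reversed to -0.53 (RT1-Ba), -0.44 (RT1-Bb), -0.39 (RT1-Da), -0.53 (RT1-Db1), -0.36 (RT1-DMa) and -0.97 (Cd74). Without rat 10, no repair at 7 against 3 DPI was 0.073 for RT1-Db1 and 0.00022 for Cd74, and without rat 74 RT1-DMb against contralateral muscle at 28 DPI was -0.022. The causes were not tested. With the replicate block, which pairs muscles of a rat (correlation 0.026), no call of a member changed. Over all genes, counts moved by over 1.5 times most often with the adjusted p alone (injured against contralateral without repair at 28 DPI, 1508 to 5630), and with a pseudocount of 0.1 that count was 2800, with size factors 976.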

Other observations

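For 4 running rats at 28 DPI the title and the label name opposite legs as injured, and these 8 libraries stayed out of every comparison. The muscles named contralateral in the titles held 130.9 to 198 TPM of Cd74 and 12.9 to 26.8 TPM of Cd68, and those named injured held 60.2 to 78.2 TPM of Cd74 and 1.64 to 3.08 TPM of Cd68. A library of the contralateral muscle of rat 11, labelled 3 DPI where the other libraries of that rat are labelled 7 DPI, also stayed out and held 84.6 TPM of Cd74.

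Cd28, the T cell receptor for Cd80 and Cd86, was chosen here after its values were seen. Its mean was 1.99 TPM in control muscle and 4.09, 28.8, 37.4 and 63.0 TPM in non-repaired muscle at 3, 7, 14 and 28 DPI, while Cd3e was at 2.55, 3.82, 1.72 and 0.92 TPM. Against contralateral muscle Cd28 was higher by log2 4.15 at 28 DPI and was called by limma.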
